A study of Mus musculus with 12 samples.

Results

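The 8 genes described here are Lin28b, Lin28a, Igf2bp1, Igf2bp2, Igf2bp3, Hmga1, Hmga2 and Arid3a. They were taken by symbol, each with its own Ensembl gene ID, out of 40481 genes listed for mouse hematopoietic stem cells (HSCs). Of the 40481, 11203 had no reads in any library. The cells were sorted from E14.5 fetal liver or from bone marrow of 8-week-old mice, and were either wild type (WT) or of the iE/R genotype, which carries inducible ETV6-RUNX1, the fusion of a pair of transcription factor genes found in childhood B-cell leukemia. Cells of all 4 groups, WT included, spent 3 days in an ex vivo culture that expands HSCs, with doxycycline at 1 µg/mL. Each group had 3 libraries, numbered 1 to 3 in the labels, made with a stranded total RNA kit for small inputs. Which promoter drives the transgene, how many animals a library holds and which sex they had is not given in the sources used here. The p-values therefore measure the spread between these libraries, which may be technical in part. Fetal liver against bone marrow differs in both age and tissue, and these cannot be told apart.

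LIN28A and LIN28B are RNA-binding proteins that bind precursors of the let-7 microRNAs and block their maturation. Mature let-7 in turn binds the 3′ untranslated region (UTR) of target transcripts and lowers their level and translation; the transcripts of the LIN28, IGF2BP, HMGA and ARID3A proteins are known targets. LIN28B is known in this lineage as a regulator of fetal HSCs, and its level falls as blood formation shifts to the adult type. The IGF2BP proteins bind and stabilise messenger RNAs, the HMGA proteins bend AT-rich DNA and alter chromatin structure, and ARID3A is an AT-rich-DNA-binding factor known for promoting B-lymphoid development.

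The sequences that link the 8 genes are the let-7 seed and its matches. The mature let-7a and let-7g are shown first, with the seed (bases 2 to 8) in capitals, and then the let-7g hairpin, with the GGAG letters outside the mature arms in capitals, which is the motif LIN28 proteins are known to bind.
mmu-let-7a-5p: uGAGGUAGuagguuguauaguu
mmu-let-7g-5p: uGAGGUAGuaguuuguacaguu
Mirlet7g hairpin: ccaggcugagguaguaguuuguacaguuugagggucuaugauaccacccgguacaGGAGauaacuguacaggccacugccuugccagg
These are RefSeq sequences (GRCm38.p6); the hairpin lies at chr9:106178840-106178927 on the plus strand. The seed GAGGUAG was shared by 9 differently named mature 5p microRNAs, listed at 11 loci. The Mirlet7a-2 hairpin, for which no 5p arm was listed, also holds the letters of let-7a-5p. Of 12 hairpins of the family, 9 held GGAG outside the mature arms. Mature microRNAs were not measured by this assay.

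Each of the 8 transcripts held at least 1 match to this seed in the longest annotated 3′UTR of the gene (GENCODE M21, GRCm38). One match per gene is shown, 5′ to 3′ on the transcript, with the bases that pair with the seed, and the A that follows where there is one, in capitals.
Lin28b: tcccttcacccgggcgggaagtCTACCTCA
Lin28a: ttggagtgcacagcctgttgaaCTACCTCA
Igf2bp1: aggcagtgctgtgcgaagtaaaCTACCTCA
Igf2bp2: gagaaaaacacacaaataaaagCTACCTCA
Igf2bp3: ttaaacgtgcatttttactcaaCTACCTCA
Hmga1: catcttctcctctgttcacaaaCTACCTC
Hmga2: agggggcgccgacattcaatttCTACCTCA
Arid3a: cacatgcaaggcaagtttctttCTACCTCA
On the minus strand lie those of Lin28b at chr10:45381022-45381051, Lin28a at chr4:134005189-134005218, Igf2bp1 at chr11:95961778-95961807, Igf2bp2 at chr16:22059473-22059502, Igf2bp3 at chr6:49086787-49086816 and Hmga2 at chr10:120364224-120364253. On the plus strand lie those of Hmga1 at chr17:27563270-27563298 and Arid3a at chr10:79953888-79953917.

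The number of matches differed between the 8 genes. The letters CTACCTC (7mer), searched on the transcript's strand, occurred 4 times in Lin28b, Igf2bp1 and Hmga2, 2 times in Lin28a and Arid3a, and once in Igf2bp2, Igf2bp3 and Hmga1. The longer form CTACCTCA (8mer), each of which is also a 7mer, occurred 3 times in Igf2bp1, 2 times in Lin28a and not in Hmga1. Among 21037 genes with a 3′UTR, 9.02% held a 7mer and 3.06% an 8mer. A longer UTR offers more places for a match, so each gene was set beside genes whose UTR was within 1.5 times its own length. For Hmga2 (3014 bases) 0.186% of 4310 such genes held at least as many 7mers, for Lin28b (4445 bases) 0.235% of 2550, and for Igf2bp1 (6337 bases) 0.429% of 1165. For Lin28a and Arid3a the share was 2.06% and 2.31%, and for Hmga1, Igf2bp2 and Igf2bp3, with 1 match each, it was 8.76%, 11.7% and 12.9%. Since the 8 genes are known as let-7 targets, these matches are a description and not a test.

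In the promoters only the letters of a RUNX motif were searched. RefSeq promoters (250 bases before to 50 after the start, GRCm38.p6) were matched for Lin28a, Lin28b, Igf2bp2, Igf2bp3, Hmga1 and Hmga2, and not for Igf2bp1 and Arid3a. The RUNX motif letters TGTGGT and TGCGGT, searched on both strands, occurred in 0 of these 6 genes' promoters and in 22.4% of 32851 promoters of this length. The absence says only that these letters are not in these windows.

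The libraries held 32.3 to 64.5 M reads. A floor of 3 reads, under which no level is claimed here, was 0.0465 to 0.0928 CPM (counts scaled to each library's total, as deposited) and covers counting error only. Runx1, 1 of the genes joined in the fusion, averaged 121 (WT) and 227 CPM (ETV6-RUNX1) in fetal liver, and 96.3 and 170 CPM in bone marrow. Etv6 averaged 123 and 178 CPM, then 164 and 225 CPM. The HSC and progenitor marker list, 12 of 12 genes with reads, summed to 1418 to 3555 CPM per library. Xist, the RNA that coats the silenced X in female cells, lay between 0.175 and 1.27 CPM for bone marrow and between 51.7 and 89.3 CPM for fetal liver, while Y-linked genes were read in all 12. Fetal liver against bone marrow therefore also differs in the sex make-up of the cells. The 8 genes are autosomal, but the part of sex make-up in their source differences was not tested.

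In WT cells, fetal liver HSCs had more RNA of the genes in this set than bone marrow HSCs in every case that could be tested. The largest differences were in Igf2bp3, Igf2bp1 and Lin28b, and the smallest in Hmga1. A gene was tested where it reached 1 CPM in at least 3 of the 12 libraries (14271 genes), with limma on log2(CPM + 1) and Benjamini-Hochberg adjustment over these genes, and called at an adjusted p under 0.05. Of the 8 genes, 7 passed this filter and 7 of these 7 were called higher in WT fetal liver, where 11.1% of all tested genes were called, 3.38% as higher and 7.77% as lower. Igf2bp1 reached 1 CPM in fetal liver libraries only, and Igf2bp3 in these and 1 bone marrow library, so both passed the filter through the groups where they are high. The count of 7 and the source differences of both genes are therefore a description. In ETV6-RUNX1 cells the same 7 were called higher in fetal liver, with 28.6% of all genes called, 10.4% higher and 18.2% lower.

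**Figure D1:**
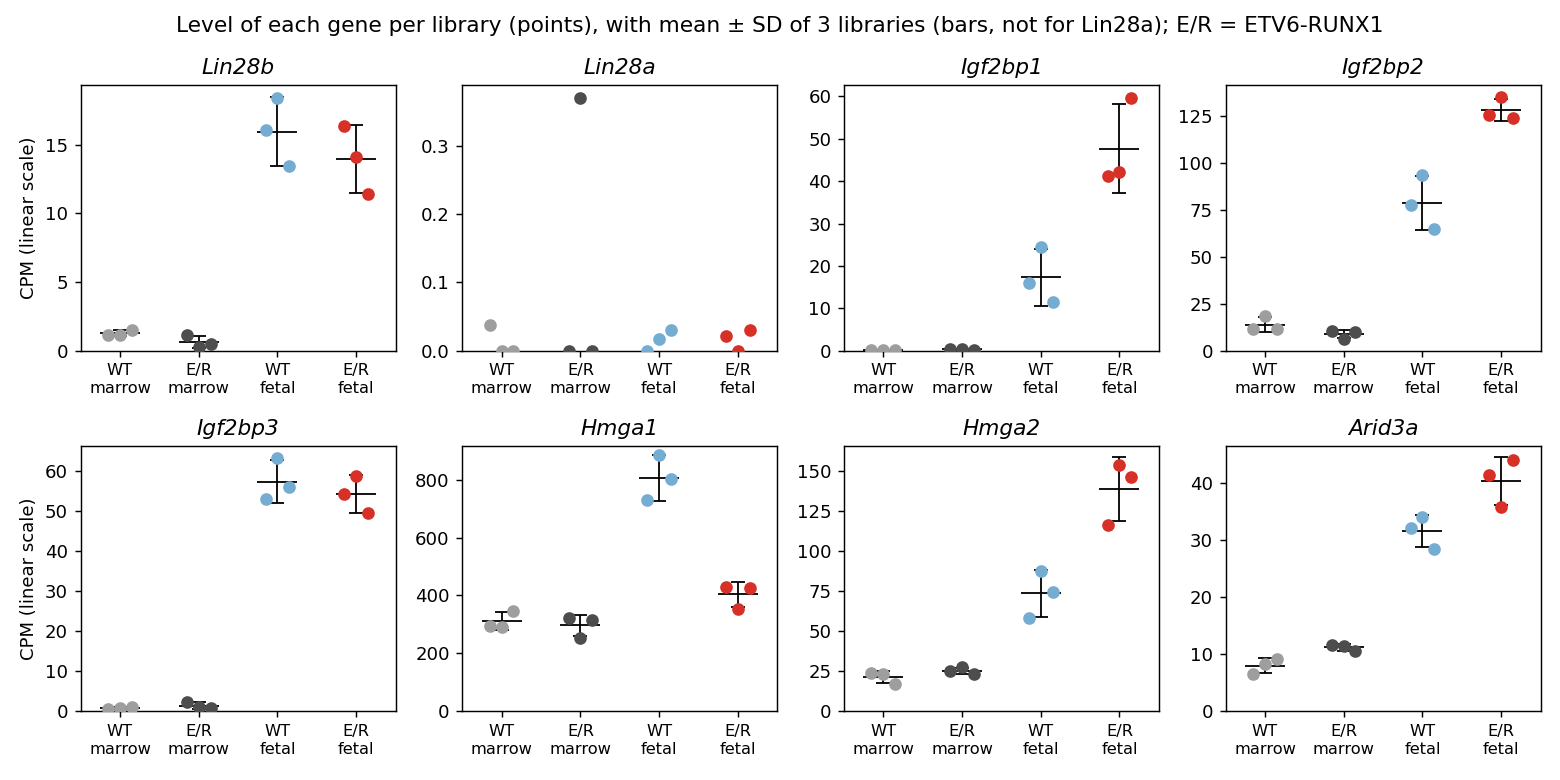
Level of each of the 8 genes in CPM (linear axis from 0) in each of the 12 libraries (points), with the mean and SD of the 3 libraries of a group (bars, left out for Lin28a). For all genes but Lin28a the fetal liver libraries lie above the bone marrow libraries of both genotypes. The share of all tested genes that separate in this way was not counted, so this is a description.

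Lin28b (ENSMUSG00000063804, chr10:45376620-45486395, minus strand), the let-7 blocker of fetal HSCs, was read at 1.14, 1.15 and 1.52 CPM in WT bone marrow and 16.0, 18.4 and 13.4 CPM in WT fetal liver, libraries 1 to 3. In ETV6-RUNX1 cells it was at 1.13, 0.278 and 0.464 CPM in bone marrow and 16.4, 14.1 and 11.4 CPM in fetal liver. Fetal and adult values did not overlap in either genotype, whereas the genotypes overlapped in fetal liver. The ratio of mean levels, fetal liver over bone marrow, was 12.6 in WT, with a log2 fold change of 2.90 ± 0.22 (SE; limma, adjusted p = 1.92e-06), the 45th largest of all tested genes in absolute size. It was 22.3 in ETV6-RUNX1, with a log2 fold change of 3.22 ± 0.22 (limma, adjusted p = 1.76e-07). Fold changes on the log2(CPM + 1) scale understate the change of low genes.

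The fusion did not move Lin28b past the threshold in either source. In fetal liver the mean was 13.9 ± 2.49 CPM (SD, n = 3) with the fusion and 16.0 ± 2.48 CPM without, a log2 fold change of -0.19 ± 0.22 (limma, adjusted p = 0.530). In bone marrow it was 0.626 ± 0.451 against 1.27 ± 0.216 CPM, a log2 fold change of -0.51 ± 0.22 (limma, adjusted p = 0.120), with values that did not overlap, although library 1 of the ETV6-RUNX1 group lay next to the WT values. These bone marrow levels rest on 9 to 61 reads per library. In bone marrow the lower level of Lin28b passed the threshold without ETV6-RUNX1 bone marrow library 1 (-0.73, limma adjusted p = 0.0471), with a pseudocount of 0.1 (-1.08, limma adjusted p = 0.0497), in edgeR (-1.16, adjusted p = 0.0405) and in DESeq2 (-1.15, adjusted p = 0.00898).

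Lin28a (ENSMUSG00000050966, chr4:134003330-134018841, minus strand), the paralog known from embryonic stem cells, had no more than 3 reads in 11 of 12 libraries. Its reads over the 3 libraries of a group were 2 in WT bone marrow, 3 in WT fetal liver and 2 in ETV6-RUNX1 fetal liver. All 12 reads of the ETV6-RUNX1 bone marrow group came from library 2, at 0.371 CPM. Lin28a was not tested, and a level under the floor was not detectable at this depth.

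Within the RNA-stabilising IGF2BP family, Igf2bp1 and Igf2bp3 showed a larger fetal excess than Igf2bp2. Igf2bp3 (ENSMUSG00000029814, chr6:49085223-49214957, minus strand), known as a partner of LIN28B in fetal-type B-lymphoid cells, was at 0.571, 0.915 and 0.996 CPM in WT bone marrow and 52.9, 63.2 and 55.9 CPM in WT fetal liver. With the fusion it was at 2.43, 0.989 and 0.928 CPM in bone marrow and 54.3, 58.8 and 49.5 CPM in fetal liver. The sources stood far apart and the genotypes overlapped in each source. Its log2 fold change for fetal liver over bone marrow was 5.0 ± 0.22 in WT, the 5th largest among all tested genes, and 4.54 ± 0.22 in ETV6-RUNX1. These source differences are a description.

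No change of Igf2bp3 with the fusion was called: the log2 fold change was -0.08 ± 0.22 in fetal liver (limma, adjusted p = 0.80) and 0.38 ± 0.22 in bone marrow (limma, adjusted p = 0.244). Igf2bp3 shares 1529 exonic bases with Malsu1, a mitochondrial ribosome assembly gene on the opposite strand, and the strand setting of the counting is not given in the sources used here. Malsu1 was at 22, 13.8 and 4.02 CPM in ETV6-RUNX1 bone marrow, and library 1, the highest of these, is also the library with the highest bone marrow level of Igf2bp3. Over the fetal liver libraries Malsu1 stayed between 3.02 and 8.91 CPM, far under Igf2bp3. Whether reads of one were counted for the other was not tested.

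Igf2bp1 (ENSMUSG00000013415, chr11:95957163-96005940, minus strand), the family member with 4 seed matches shown above in part, was almost absent from adult cells. WT bone marrow held 0.0571, 0.117 and 0.149 CPM (3, 6 and 6 reads) and ETV6-RUNX1 bone marrow 0.351, 0.309 and 0.217 CPM (13, 10 and 7 reads). WT fetal liver held 16.0, 24.6 and 11.4 CPM and ETV6-RUNX1 fetal liver 41.3, 42.1 and 59.7 CPM. No 2 groups overlapped, and the order from low to high was WT bone marrow, ETV6-RUNX1 bone marrow, WT fetal liver, ETV6-RUNX1 fetal liver. The ratio of mean CPM, fetal liver over bone marrow, was 161 in WT and 163 in ETV6-RUNX1, with a log2 fold change of 3.99 ± 0.24 in WT and 5.22 ± 0.24 in ETV6-RUNX1. These source differences are a description.

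Igf2bp1 rose with the fusion in fetal liver, by a log2 fold change of 1.45 ± 0.24 (limma, adjusted p = 0.000303), from a mean of 17.3 ± 6.67 to 47.7 ± 10.4 CPM (SD, n = 3). In bone marrow the log2 fold change was 0.22 ± 0.24 (limma, adjusted p = 0.553), and DESeq2 on the recovered reads called Igf2bp1 higher there (1.34, adjusted p = 0.0498), which edgeR's quasi-likelihood test did not. On the linear scale, however, the ratio of the means was 2.75 in fetal liver and 2.71 in bone marrow, the latter from 30 against 15 reads per group.

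Igf2bp2 (ENSMUSG00000033581, chr16:22059009-22163299, minus strand), the family member also expressed in adult tissues, was at 11.4, 18.6 and 11.6 CPM in WT bone marrow and 77.6, 93.2 and 64.5 CPM in WT fetal liver. With the fusion it was at 10.5, 6.28 and 9.93 CPM in bone marrow and 126, 135 and 124 CPM in fetal liver. In fetal liver every ETV6-RUNX1 value exceeded every WT value, and in bone marrow every ETV6-RUNX1 value was the lower. Fetal liver exceeded bone marrow by a log2 fold change of 2.44 ± 0.22 in WT (limma, adjusted p = 5.83e-06) and 3.73 ± 0.22 in ETV6-RUNX1 (limma, adjusted p = 3.10e-08).

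With the fusion, Igf2bp2 rose in fetal liver by a log2 fold change of 0.72 ± 0.22 (limma, adjusted p = 0.0157). This call was lost without WT fetal liver library 3 (0.58, limma adjusted p = 0.0773) or ETV6-RUNX1 fetal liver library 2 (0.68, limma adjusted p = 0.0509). In bone marrow the log2 fold change was -0.58 ± 0.22 (limma, adjusted p = 0.0746), and this lower level was called under 5 alternatives, among them median-of-ratios scaling (-0.72, limma adjusted p = 0.0237), edgeR (-0.78, adjusted p = 0.0216) and DESeq2 (-0.77, adjusted p = 0.00544).

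Set on a scale per length, in CPM per kb of merged exons, the make-up of the IGF2BP family differed between sources. The family summed to a mean of 1.98 CPM per kb in WT bone marrow and 19.4 in WT fetal liver. Igf2bp2 made up 94.2% ± 1.94 (SD, n = 3) of that sum in WT bone marrow and 54.5% ± 2.20 in WT fetal liver, where Igf2bp3 took 36.5% ± 3.83 and Igf2bp1 9.0% ± 2.03. In ETV6-RUNX1 fetal liver the sum was 28.9 CPM per kb, and the share of Igf2bp1 was 17.1% ± 3.68, above each WT fetal liver library, while that of Igf2bp3 was 23.0% ± 1.79, below each of them. In ETV6-RUNX1 bone marrow the sum was 1.41 CPM per kb, with 85.5% ± 4.95 from Igf2bp2.

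**Figure D2:**
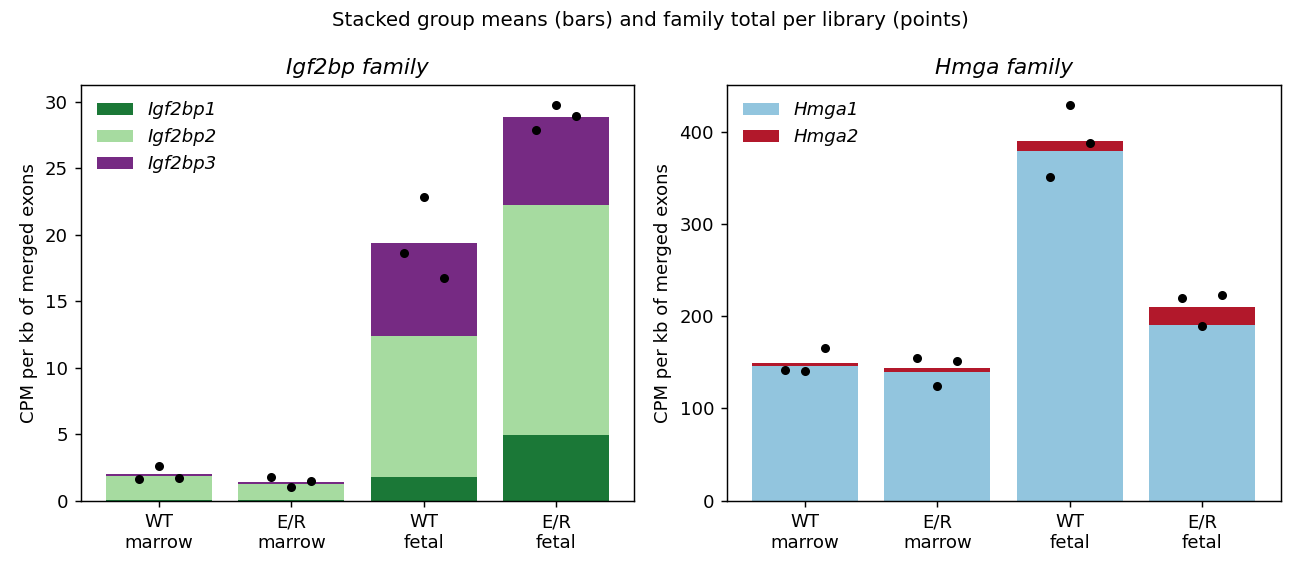
Level of the IGF2BP (left) and HMGA (right) families in CPM per kb of merged exons; bars stack the group means of the members and points give the family total of each library. The IGF2BP total was highest in ETV6-RUNX1 fetal liver (mean 28.9) and the HMGA total in WT fetal liver (mean 390).

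The HMGA genes moved in opposite directions with the fusion in fetal liver. Hmga2 (ENSMUSG00000056758, chr10:120361275-120476469, minus strand), the classic let-7 target of fetal stem cells, was at 23.9, 23.5 and 17.4 CPM in WT bone marrow and 58.7, 88.0 and 74.4 CPM in WT fetal liver. With the fusion it was at 25.0, 27.6 and 23.7 CPM in bone marrow and 116, 154 and 146 CPM in fetal liver. All ETV6-RUNX1 fetal liver libraries exceeded all others, and the bone marrow genotypes overlapped. Hmga2 rose with the fusion in fetal liver from a mean of 73.7 ± 14.7 to 139 ± 19.9 CPM (SD, n = 3), a ratio of 1.89 and a log2 fold change of 0.92 ± 0.18 (limma, adjusted p = 0.000943).

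In bone marrow the log2 fold change of Hmga2 with the fusion was 0.24 ± 0.18 (limma, adjusted p = 0.371). Fetal liver exceeded bone marrow by 1.72 ± 0.18 in WT and 2.40 ± 0.18 in ETV6-RUNX1 on the log2 scale (limma, adjusted p = 2.28e-05 and 3.42e-07). An antisense transcript that shares 140 exonic bases with Hmga2, 1700006J14Rik, was at 1.12, 1.39 and 1.35 CPM in WT and 8.47, 9.34 and 8.91 CPM in ETV6-RUNX1 fetal liver. Its part in the Hmga2 count was not tested; its highest level in any library was 9.34 CPM.

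Hmga1 (ENSMUSG00000046711, chr17:27556497-27563674, plus strand), which is abundant in cycling cells, was at 294, 292 and 346 CPM in WT bone marrow and 728, 885 and 802 CPM in WT fetal liver. With the fusion it was at 321, 255 and 315 CPM in bone marrow and 429, 355 and 428 CPM in fetal liver. WT fetal liver stood above the other 3 groups without overlap, and the bone marrow genotypes overlapped. Hmga1 fell with the fusion in fetal liver from a mean of 805 ± 78.4 to 404 ± 42.7 CPM (SD, n = 3), a log2 fold change of -0.99 ± 0.14 (limma, adjusted p = 5.89e-05). In bone marrow it was -0.07 ± 0.14 (limma, adjusted p = 0.757), and its sign turned under 4 alternatives.

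Fetal liver exceeded bone marrow in Hmga1 by a log2 fold change of 1.37 ± 0.14 in WT (limma, adjusted p = 1.60e-05). In ETV6-RUNX1 it was 0.44 ± 0.14 (limma, adjusted p = 0.0254), a call that was lost without ETV6-RUNX1 bone marrow library 2 (0.34, limma adjusted p = 0.0998), ETV6-RUNX1 fetal liver library 1 (0.40, limma adjusted p = 0.0955) or library 3 (0.40, limma adjusted p = 0.0755), or with no filter on low genes (limma, adjusted p = 0.0539). Hmga1b, a near-identical copy, had means of 53.0 CPM in WT and 35.2 CPM in ETV6-RUNX1 fetal liver and 19.7 and 34.6 CPM in bone marrow, so the Hmga1 level is uncertain by reads that could be split between them. Summed with Hmga1b, Hmga1 kept each of its calls. It also shares 102 exonic bases with AI413582 on the opposite strand, whose highest level was 54.5 CPM.

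Per length, the share of Hmga2 in the HMGA sum was 2.17% ± 0.534 (SD, n = 3) for WT bone marrow cells, 2.66% ± 0.549 for the ETV6-RUNX1 ones and 2.77% ± 0.285 for WT fetal liver cells. Its share was 9.85% ± 2.09 in ETV6-RUNX1 fetal liver, where each library lay above the libraries of the other 3 groups. The HMGA sum itself was 390 CPM per kb in WT and 211 CPM per kb in ETV6-RUNX1 fetal liver, since Hmga1 held most of it in every group.

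Arid3a (ENSMUSG00000019564, chr10:79927043-79955018, plus strand), the AT-rich-DNA-binding factor of the set, was at 6.53, 8.39 and 9.14 CPM in WT bone marrow and 32.2, 34.1 and 28.5 CPM in WT fetal liver. With the fusion it was at 11.7, 11.5 and 10.5 CPM in bone marrow and 41.4, 35.8 and 44.0 CPM in fetal liver. The ETV6-RUNX1 libraries lay above the WT libraries in both sources, by less than the threshold required: the log2 fold change was 0.34 ± 0.16 in fetal liver (limma, adjusted p = 0.103) and 0.45 ± 0.16 in bone marrow (limma, adjusted p = 0.0680). With limma array weights the fetal liver difference was called (0.32, adjusted p = 0.0432). Fetal liver exceeded bone marrow by 1.86 ± 0.16 in WT and 1.76 ± 0.16 in ETV6-RUNX1 on the log2 scale (limma, adjusted p = 5.29e-06 and 3.12e-06).

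Over the set, the fusion in fetal liver was followed by 3 genes called higher (Igf2bp1, Igf2bp2 and Hmga2) and 1 called lower (Hmga1) of the 7 tested, where 43.1% of all tested genes were called, 24.8% higher and 18.3% lower. A share of 4 in 7 stands near that background. In bone marrow 0 of 7 were called by limma, against 19.4% of all genes, 14.4% higher and 4.93% lower. There edgeR called 2 of the 7 and DESeq2 3, where they called 2739 and 3297 of the 14271 tested genes. An unadjusted limma p under 0.05 was found for 3 of the 7. That share was not counted over all genes, where it is at least the 19.4% called after adjustment. The 3 are therefore not a result about the set. The exact two-sided permutation test of group means cannot go below p = 0.1 with 3 libraries against 3, and gave p = 0.1 wherever groups did not overlap.

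**Figure D3:**
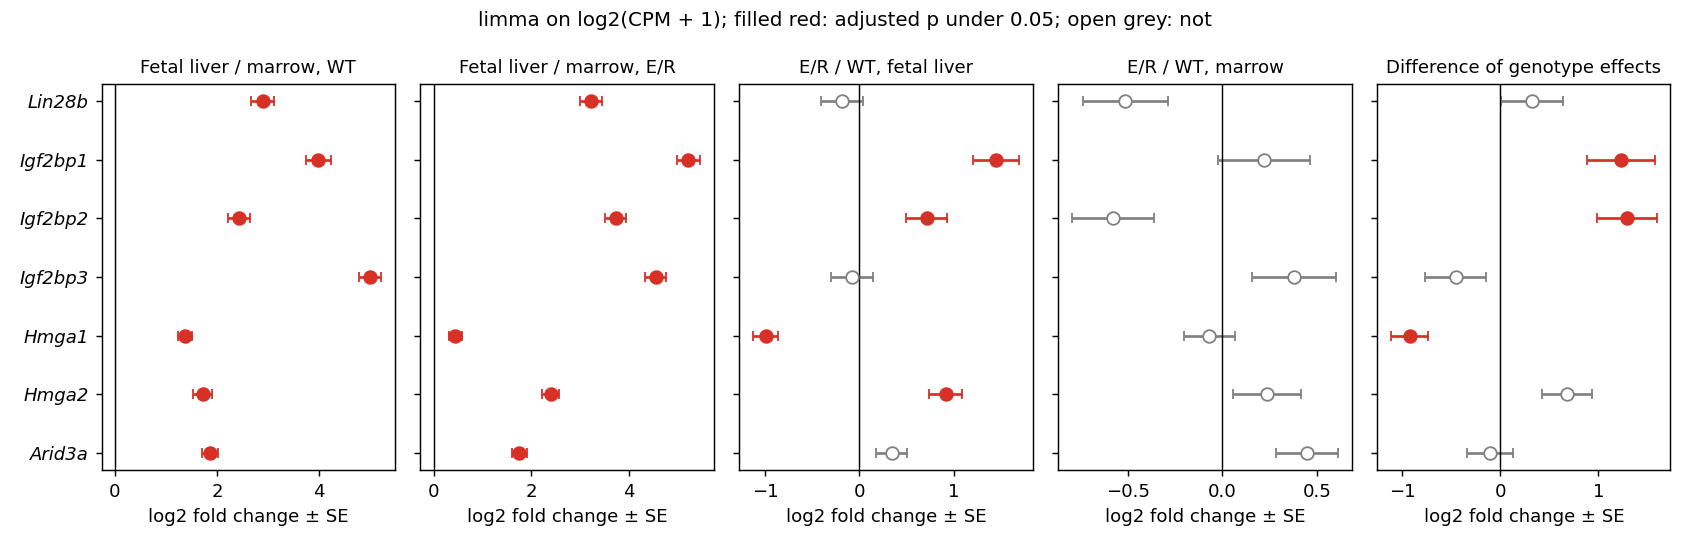
Log2 fold change with SE (limma on log2(CPM + 1)) of the 7 tested genes in each comparison; filled red points have an adjusted p under 0.05 and each panel has its own horizontal scale. All 7 are red in both fetal liver over marrow panels, 4 in the fusion effect in fetal liver and none in marrow.

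The interaction tests whether the fusion's effect differed between fetal liver and bone marrow. Of the 7 genes 3 were called, 2 as higher in fetal liver and 1 as lower, with 9.19% of all tested genes called, 5.56% higher and 3.62% lower. The effect on Igf2bp2 was higher in fetal liver by 1.29 ± 0.31 on the log2 scale (limma, adjusted p = 0.0181), and that on Hmga1 was lower by -0.93 ± 0.19 (limma, adjusted p = 0.00881). The Igf2bp2 difference lost its call without WT fetal liver library 3 (1.16, limma adjusted p = 0.0536) and with no filter on low genes (1.29, limma adjusted p = 0.0620). The effect on Igf2bp1 was higher by 1.23 ± 0.34 (limma, adjusted p = 0.0386), but this difference rests on the pseudocount. With a pseudocount of 0.1 it was 0.58 (limma, adjusted p = 0.449), edgeR on the recovered reads gave 0.06 (adjusted p = 0.975) and DESeq2 0.05 (adjusted p = 0.968), and the call was lost in 18 of 22 alternatives. Hmga2, at 0.68 ± 0.25 (limma, adjusted p = 0.103), was not called, nor were Lin28b at 0.33 ± 0.32, Igf2bp3 at -0.46 ± 0.31 and Arid3a at -0.10 ± 0.23 (limma, adjusted p = 0.544, 0.374 and 0.815).

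**Figure D4:**
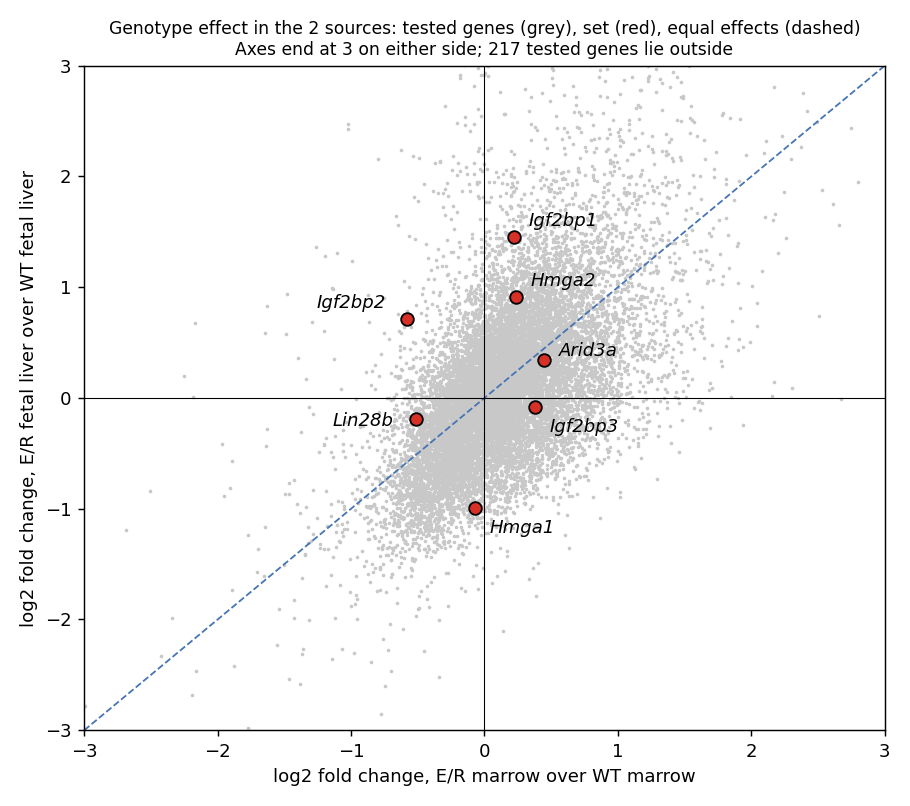
Log2 fold change of ETV6-RUNX1 over WT in marrow (horizontal) and in fetal liver (vertical) for all tested genes (grey, 217 lie outside the axes) and the 7 tested genes of the set (red); the dashed line marks equal effects. Igf2bp2 lies on opposite sides of 0 in the sources, and Igf2bp1, Hmga2 and Hmga1 lie away from the dashed line. The interaction of Hmga2 was not called, and that of Igf2bp1 rests on the pseudocount. Lin28b and Igf2bp3 lie off the line as well, without an interaction call.

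Scaling shifted all genes a little: the median log2 fold change of all tested genes was 0.08 with the fusion in fetal liver, 0.13 in bone marrow, -0.07 for fetal liver over bone marrow in WT and -0.16 in ETV6-RUNX1. After median-of-ratios scaling these medians were 0.01, -0.00, 0.01 and -0.00. The share of higher genes among all called genes moved with it, from 57.6% to 52.5% for the fusion in fetal liver (42.0% after quantile normalization), from 74.5% to 50.6% in bone marrow, from 60.6% to 74.5% for the interaction, from 30.3% to 41.0% for source in WT and from 36.3% to 58.7% in ETV6-RUNX1. The 4 calls of the set in fetal liver and the 14 fetal liver over bone marrow calls kept their direction and call under both scalings. Among the latter, those of Igf2bp1 and Igf2bp3 remain a description, since both genes passed the filter through the groups where they are high.

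Other measures moved with the fusion in fetal liver. Among Y-linked genes, Uty, Ddx3y, Kdm5d and Eif2s3y were each higher in every ETV6-RUNX1 than in every WT fetal liver library, with Uty at 18.7, 9.75 and 11.5 CPM in WT and 41.5, 47.0 and 41.9 CPM in ETV6-RUNX1. Xist averaged 67.1 CPM in WT and 63.4 CPM in ETV6-RUNX1 fetal liver. In bone marrow the WT and ETV6-RUNX1 means were 43.9 and 59.1 CPM for Uty, 95.4 and 123 CPM for Ddx3y, 102 and 136 CPM for Eif2s3y, and 20.7 and 20.3 CPM for Kdm5d. What set the level of these Y-linked genes was not tested. With the summed log2 level of the Y-linked genes as a covariate, an alternative chosen after seeing the data, Igf2bp1 and Hmga2 kept their calls. Igf2bp2 (1.01 ± 0.41, limma adjusted p = 0.173) and Hmga1 (-0.73 ± 0.25, limma adjusted p = 0.0962) lost theirs. The 3 interaction differences lost theirs as well, with wider errors, at 1.5 ± 0.40 for Igf2bp2, 1.55 ± 0.44 for Igf2bp1 and -0.74 ± 0.24 for Hmga1 (limma, adjusted p = 0.0624, 0.0857 and 0.137).

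Markers of other blood lineages also moved with it. The megakaryocyte list, 7 of 7 with reads, summed to 3064 to 4523 CPM in WT and 7125 to 7823 CPM in ETV6-RUNX1 fetal liver, the erythroid list (9 of 9) to 731 to 1013 and 1448 to 2223 CPM, and the HSC list to 1418 to 1732 and 3383 to 3555 CPM. Within the HSC list Ly6a went from a mean of 19 to 879.8 CPM and Cd48 from 183 to 21.5 CPM. The macrophage list summed to 40.7 to 48.9 CPM in WT and 107 to 121 CPM in ETV6-RUNX1 fetal liver, with C1qa at or under the floor in each of these libraries, and the endothelium list (6 of 6) to 89.9 to 113 and 175 to 195 CPM. Pf4 led the megakaryocyte sum (means of 2472 and 4816 CPM) and Hbb-bt the erythroid sum (815 and 1611 CPM). Cd68 led the macrophage sum (43.5 and 105 CPM) and Pecam1 the endothelium sum (69.7 and 141 CPM). Among the members that fell were Gp9 (387 to 213 CPM), Klf1 (0.654 to 0.175 CPM), Mrc1 (1.47 to 1.25 CPM), Kdr (6.79 to 6.32 CPM) and Emcn (18.7 to 12.9 CPM). The neutrophil sum was lower with the fusion, at 238 to 312 CPM in WT and 37.4 to 55.2 CPM in ETV6-RUNX1 fetal liver. Its members S100a8 and S100a9 were at or under the floor in both groups. The hepatoblast list summed to 40.6 to 53.9 CPM in WT and 20.9 to 24.3 CPM in ETV6-RUNX1 fetal liver, where the mean of Dlk1 was 27.0 and 4.82 CPM and that of Afp 15.1 and 15.6 CPM. The liver-defining Ttr, Ahsg, Serpina1a and Fgb were at or under the floor in every library. So was Alb in WT fetal liver and in bone marrow of both genotypes, but not in every ETV6-RUNX1 fetal liver library, where its mean was 0.12 CPM. In bulk libraries fewer cells of a type and less RNA per cell cannot be told apart, and the part of these lineages in the results of the set was not tested.

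The wider let-7 pathway was followed through gene lists, each described by its counts. Over all tested genes, the shares called higher and lower were those given above: 24.8% and 18.3% for the fusion in fetal liver, 14.4% and 4.93% in bone marrow, 5.56% and 3.62% for the interaction, 3.38% and 7.77% for fetal liver over bone marrow in WT, and 10.4% and 18.2% in ETV6-RUNX1. A count near these shares is not a result about its list. Of 20 tested genes that process, carry or degrade let-7 and other microRNAs, the fusion in fetal liver was followed by 4 called higher and 1 lower, with a median log2 fold change of 0.12 against 0.08 for all tested genes. Tarbp2, a partner of Dicer, rose from 77.9 ± 8.38 to 127 ± 19 CPM (SD, n = 3; limma, adjusted p = 0.00285), and Syncrip, an RNA-binding protein, fell from 134 ± 19.4 to 91.0 ± 13.1 CPM (limma, adjusted p = 0.0353). In bone marrow 2 were higher and 0 lower, among them Msi2, an RNA-binding protein of HSCs, from 130 ± 9.60 to 217 ± 28.1 CPM (limma, adjusted p = 0.0165). In WT 0 of 20 differed between sources, in ETV6-RUNX1 1 was higher and 3 lower in fetal liver, and the interaction held 0 higher and 1 lower.

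The let-7 genes themselves gave almost no reads in these libraries: of 13 loci and host transcripts listed in the table only 3, the host genes Mir99ahg, Huwe1 and Wdr82, passed the filter. Mir99ahg, which hosts Mirlet7c-1, rose with the fusion in fetal liver from 8.74 ± 0.920 to 19.4 ± 3.11 CPM (SD, n = 3), a log2 fold change of 1.06 ± 0.18 (limma, adjusted p = 0.000391). In bone marrow it rose from 14.3 ± 1.67 to 25.7 ± 4.69 CPM, by 0.80 ± 0.18 (limma, adjusted p = 0.00916). It was lower in fetal liver than in bone marrow in WT, by -0.65 ± 0.18 (limma, adjusted p = 0.0334), a call not made in ETV6-RUNX1. Huwe1 lay between 69.9 and 79.8 CPM and Wdr82 between 34.7 and 38.7 CPM in the group means, with no call. A host transcript's level is not a measure of the mature microRNA.

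Known let-7 targets outside the set did not share one direction. Of 28 tested, 7 were higher and 7 lower with the fusion in fetal liver, near the shares of 24.8% and 18.3% over all genes, with a median of -0.06. Thbs1, which codes for the matrix protein thrombospondin and is also made by megakaryocytes, rose from 74.9 ± 15.4 to 1995 ± 270.5 CPM (SD, n = 3; limma, adjusted p = 0.000119). Arid3b, the paralog of Arid3a, rose from 24.3 ± 7.54 to 72.8 ± 6.36 CPM, a log2 fold change of 1.58 ± 0.23 (limma, adjusted p = 9.83e-05), and by more than in bone marrow (interaction 1.14, limma adjusted p = 0.0424). Mycn, a growth-promoting transcription factor, fell from 137 ± 16.9 to 59.1 ± 3.70 CPM (limma, adjusted p = 3.34e-05). In bone marrow 1 was higher and 2 lower, and the interaction held 3 higher and 3 lower.

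Between sources, 4 of the 28 targets were higher and 3 lower in WT fetal liver, with a median of 0.22 against -0.07 for all genes. Cdc34, a ubiquitin-conjugating enzyme, was at 42.4 ± 11.6 CPM in fetal liver and 15.5 ± 1.05 CPM in bone marrow (SD, n = 3; limma, adjusted p = 0.00189), while the cell cycle kinase Cdk6 was at 300.5 ± 98.9 and 659 ± 185 CPM (limma, adjusted p = 0.0108). In ETV6-RUNX1 7 were higher and 5 lower.

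**Figure D5:**
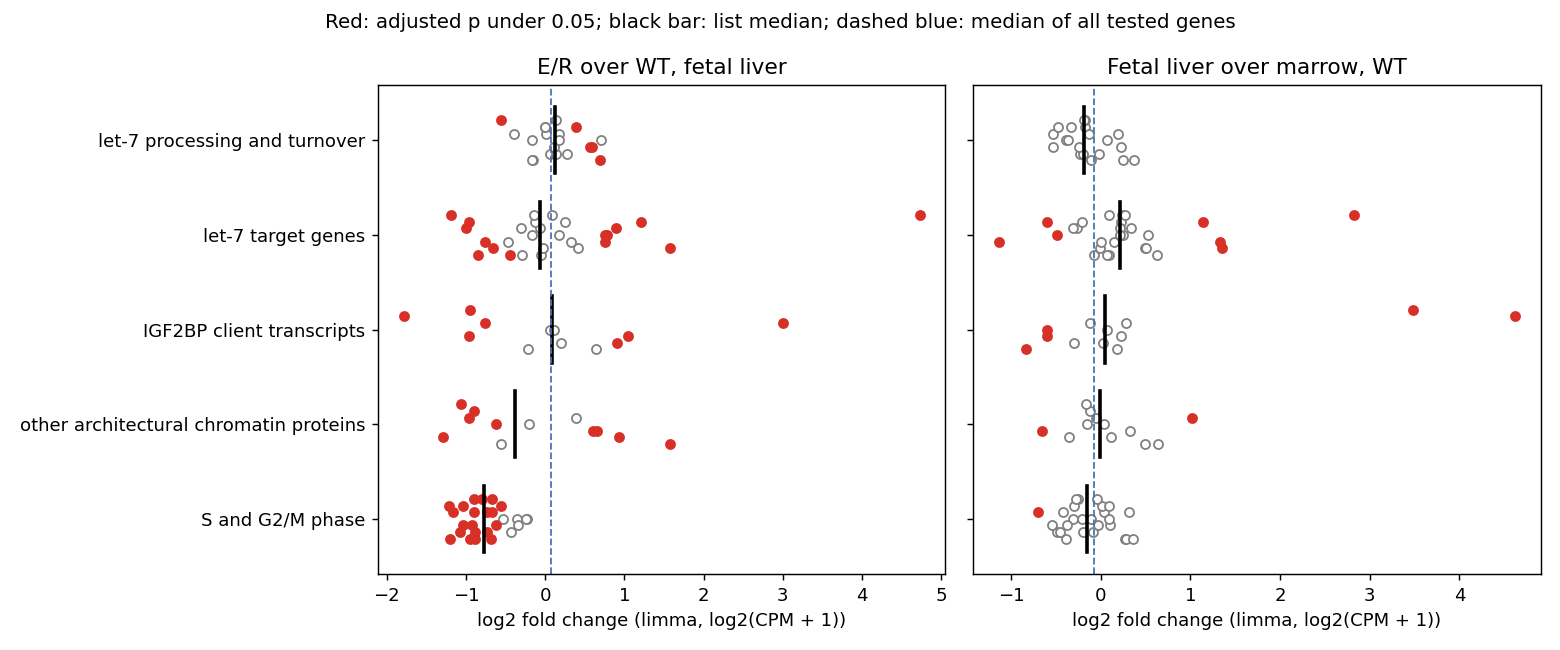
Log2 fold change of each tested gene (points) of 5 gene lists, for ETV6-RUNX1 over WT in fetal liver (left) and fetal liver over marrow in WT (right); red points have an adjusted p under 0.05, black bars are list medians and the dashed line is the median of all tested genes. The S and G2/M list lies wholly below 0 on the left.

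The same question was put to all genes by their seed matches. Of 1264 tested genes outside the set with at least 1 7mer in the 3′UTR, 30.9% were higher and 14.3% lower with the fusion in fetal liver, with a median log2 fold change of 0.18; of 10703 tested genes with none, 26.6% were higher and 18.6% lower, with a median of 0.11. Of the 150 among these 1264 with at least 2 7mers, 30.7% were higher and 14.7% lower, with a median of 0.16. A trend with the number of matches was not tested. Of 21 with at least 3, 9 were higher and 0 lower, with a median of 0.34. In bone marrow 14.4% of genes with a match and 15.4% of those without were higher. For fetal liver over bone marrow in WT the medians were -0.10 with a match and -0.09 without, and of the 21 genes with at least 3 matches 0 were higher and 2 lower. The median 3′UTR length was 2326.5 bases with a match, 4457 bases with at least 3 and 1055 bases without, and length was not held equal here. With at least 3 matches some annotated 3′UTRs were very long: 122583 bases in D10Wsu102e, which was not called with the fusion in fetal liver. They were 39397 bases in D1Ertd622e and 16999 bases in Zbtb37, both among the 9 called higher.

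Among transcripts known to be bound by IGF2BP proteins, H19 and Igf2 had higher levels in fetal liver, the only source in which either reached the filter's 1 CPM, so their source differences are a description. H19, a noncoding RNA, was at 36.4 ± 14 CPM in WT fetal liver and 0.462 ± 0.0361 CPM in WT bone marrow (SD, n = 3), a log2 fold change of 4.62 ± 0.25. Igf2, the fetal growth factor, was at 12.8 ± 6.14 and 0.165 ± 0.171 CPM, a log2 fold change of 3.49 ± 0.30. Both fell with the fusion in fetal liver, H19 to 9.59 ± 2.71 CPM (limma, adjusted p = 6.31e-05) and Igf2 to 5.93 ± 2.13 CPM (limma, adjusted p = 0.0205), where Igf2bp1 and Igf2bp2 rose. Cd44, an adhesion receptor, rose there from 131 ± 32.0 to 265 ± 8.09 CPM (limma, adjusted p = 0.000384).

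Over the 12 tested client transcripts, 3 were higher and 4 lower with the fusion in fetal liver (median 0.08), 3 and 1 in bone marrow, and 1 and 2 in the interaction. In fetal liver over bone marrow 2 were higher and 3 lower in WT, and 4 and 3 in ETV6-RUNX1.

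Other architectural chromatin proteins split in fetal liver: of 12 tested, 4 were higher and 5 lower with the fusion, with a median of -0.38 against 0.08. Hmgn2, a nucleosome-binding protein, fell from 1200 ± 159 to 488 ± 17.1 CPM (SD, n = 3; limma, adjusted p = 7.91e-06), and Hmgb3, a DNA-bending protein of HSCs, from 239 ± 14.8 to 114 ± 9.53 CPM (limma, adjusted p = 4.86e-05). In bone marrow 2 were higher and 3 lower, and Hmgn2 fell there too, from 1108 ± 100.5 to 522 ± 80.5 CPM (limma, adjusted p = 0.000301), while no change of Hmga1 was called. In WT fetal liver over bone marrow 1 was higher (Satb1) and 1 lower (Hmgn3), in ETV6-RUNX1 2 and 4, and the interaction held 1 higher and 0 lower.

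Genes of the S and G2/M phases, which rise in cycling cells, fell with the fusion beside Hmga1. Of 26 tested, 0 were higher and 20 lower in fetal liver, with a median of -0.77, and 0 higher and 11 lower in bone marrow, with a median of -0.47. Plk1, a mitotic kinase, fell in fetal liver from 194 ± 10.3 to 83.8 ± 6.92 CPM (SD, n = 3; limma, adjusted p = 4.60e-06). In WT, 0 were higher and 1 lower in fetal liver than in bone marrow, where Hmga1 was 2.59 times as high, and in ETV6-RUNX1 0 were higher and 15 lower. In the interaction 0 were higher and 4 lower. The part of the cell cycle in the Hmga1 difference was not tested.

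For each tested gene of the set the 3 genes with the most similar pattern were taken, by Pearson r of log2(CPM + 1) over the 12 libraries. These libraries fall into 2 sources, so a high r mostly repeats the source difference, and r is a description. Cdh5, a vascular cadherin at 6.36 CPM in WT and 15.5 CPM in ETV6-RUNX1 fetal liver and under 1 CPM in bone marrow, was nearest to Igf2bp1 (r = 0.99), Igf2bp2 (r = 0.99) and Hmga2 (r = 0.98). Brinp1 was nearest to Igf2bp3 (r = 0.98), Tlr12 to Lin28b (r = 0.98) and Adprh to Arid3a (r = 0.98). Hmga1 stood apart: its nearest genes included Dlk1 and Bmp8a (both r = 0.94), each of which was higher in WT fetal liver than in WT bone marrow and fell with the fusion in fetal liver. Dlk1, a fetal growth gene, was at 27.0 CPM in WT and 4.82 CPM in ETV6-RUNX1 fetal liver (limma, adjusted p = 0.000229).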

How the data were processed

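Per the labels' protocols, total RNA of 12 HSC cultures was made into stranded libraries and sequenced as read pairs. The submitters' processing notes name STAR 2.5.1a, featureCounts 1.4.6-p5, Salmon 0.8.2, edgeR and limma with GRCm38; annotation release and strand setting are not given in the sources used here. The authors deposited 1 table of CPM per gene, and 0 of its value columns were left out. 100% of values were whole multiples (within 0.1 reads) of what 1 read is worth, which gave library totals and whole reads. Of 40757 entries, 276 repeated a gene ID with the same values, which left 40481 genes; 40340 IDs were in GENCODE M21.

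CPM were tested as log2(CPM + 1) with limma 3.58.1 in R 4.3.3 (trend, 1 coefficient per group, 8 residual degrees of freedom), Benjamini-Hochberg adjustment, threshold 0.05. The script was tested on simulated data. Alternatives were a pseudocount of 0.1, no filter (29278 genes), a minimum mean of 5 CPM (10648 genes), scaling by median ratios or quantiles, edgeR 4.0.16 and DESeq2 1.42.0 on the recovered reads, the 6 libraries compared alone, array weights, the replicate number as a block, leaving out each library, Hmga1 summed with Hmga1b and, added later, a Y-linked covariate. On the recovered reads edgeR called 6178 genes for the fusion in fetal liver, 2739 in bone marrow and 1105 for the interaction, against 6151, 2763 and 1311 by limma.

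The 8 genes and all lists (let-7 processing, let-7 loci, let-7 targets, IGF2BP clients, architectural chromatin proteins, S and G2/M, cell type markers) were chosen with earlier results of these data known, so their counts are not independent evidence. From each list at most 4 called genes with the largest change per comparison were open to naming, plus let-7 hosts above 1 CPM. Coordinates are GRCm38, 1-based. 1 gene with a pattern near that of Hmga1 is not reported here.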

Additional observations from a re-analysis of the deposited data

Results flagged for a closer look

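For 3 genes of the set the effect of ETV6-RUNX1 differed between fetal liver and bone marrow by the test of the interaction (limma, Benjamini-Hochberg adjusted p under 0.05). The effect on Igf2bp2 was higher in fetal liver by 1.29 (log2; adjusted p = 0.0181), with all 3 ETV6-RUNX1 libraries above WT in fetal liver and all 3 below WT in bone marrow. This call was lost without WT fetal liver library 3 (limma, adjusted p = 0.0536) and with no filter on low genes (limma, adjusted p = 0.0620). The effect on Hmga1 was lower in fetal liver by -0.93 (limma, adjusted p = 0.00881), with 3 of 3 ETV6-RUNX1 libraries below every WT library in fetal liver and overlapping values in bone marrow. The effect on Igf2bp1 was higher by 1.23 (limma, adjusted p = 0.0386) on the log2(CPM + 1) scale, while the ratio of mean CPM was 2.75 in fetal liver and 2.71 in bone marrow, where no library held more than 13 reads of it. The Igf2bp1 call was lost in 18 of 22 alternatives, with a difference of 0.06 in edgeR and 0.05 in DESeq2. All 3 calls were lost with the Y-linked covariate.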

How the results depend on the processing

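Of 789 alternative values for the 35 gene results, 742 kept direction and call, 30 lost the call, 11 gained it and 6 turned direction. A result that was not called and stayed so is counted as kept. The source differences of Igf2bp1 and Igf2bp3, which are a description, are also counted and were kept under every alternative. The turned values were near 0: Hmga1 in bone marrow with the Y-linked covariate (0.0036) or summed with Hmga1b (0.00076) and over single left-out libraries (-0.13 to 0.039), and the Arid3a interaction after quantile normalization (0.014) and over left-out libraries (-0.19 to 0.020). Of the set, the number called in fetal liver fell from 4 to 2 with the Y-linked covariate. In bone marrow it rose from 0 to 1 with a pseudocount of 0.1, median-of-ratios scaling, quantile normalization or array weights. It rose to 2 in edgeR and to 3 in DESeq2, where 2739 and 3297 of all tested genes were called, against 2763 by limma. Over left-out libraries it was 0 to 1 (1 without ETV6-RUNX1 library 1). The interaction count fell from 3 to 1 without a filter, to 0 with the covariate (differences of 1.29, 1.23 and -0.93 became 1.5, 1.55 and -0.74, with wider errors), and ranged from 1 to 3 over left-out libraries (1 without WT fetal liver library 3). The counts over all genes were 1081 (fetal liver) and 407 (interaction) with the covariate, 1601 in bone marrow with only the 6 libraries compared, 767 for the interaction without a filter, and 3637 (interaction) and 4401 (source in WT) with array weights. Over left-out libraries they ranged from 1520 (without ETV6-RUNX1 library 2) to 2924 in bone marrow, from 731 (without WT bone marrow library 2) to 2332 (without WT bone marrow library 1) for the interaction and from 868 to 2781 for source in WT (without the same libraries). The cause of these shifts was not tested. Replicate numbers gave no clear pairing of the libraries. The deviations of same-numbered libraries from their group means correlated at r = -0.44 to 0.39 over 18 pairs, 7 of them over 0.1. Of 12 libraries, 2 correlated best with their own number. With 3 libraries per group these deviations are not independent, so the check cannot exclude a shared preparation by number. With the replicate number as a block Igf2bp1 lost its interaction call (1.23, limma adjusted p = 0.0621), the 1 call of the set that changed. The counts over all genes were then 5838 in fetal liver, 2334 in bone marrow and 1033 for the interaction. Depth limits Lin28a in all groups and Igf2bp1 in bone marrow, where 3 to 13 reads per library do not settle a ratio.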
